A study of Mus musculus with 8 samples.

Results

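Regions of the mouse genome carrying 5-hydroxymethylcytosine (5hmC) in young hippocampus were compared between enriched and control housing. The comparison used 4 of the 8 deposited peak lists, 2 from young enriched and 2 from young control samples, which held 239643 of 393283 peaks in all. All samples came from hippocampi of mice on the C57BL/6 background. The young mice were 6 weeks old by their labels, which do not state whether that was at the start or the end of the housing period. The enriched group spent 5 h of each day for 4 weeks in a roomy chamber fitted with tunnels, toys and a wheel for exercise, and the control group stayed in small standard cages. The other 4 lists, from 18-month-old mice under the same 2 kinds of housing, had no part in choosing the young regions and served as a readout of them and in tests that span both ages. The labels do not say how many mice gave a sample or whether mice were pooled, so the spread between samples of a group may be technical. DNA of the whole hippocampus mixes neurons and glia. A changed number of cells of one type and a changed amount of 5hmC per cell cannot be told apart in it.

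5hmC is made from 5-methylcytosine by the TET dioxygenases. It is both an intermediate on the way to unmodified cytosine and a lasting mark, and it is unusually abundant in neurons, mostly over gene bodies and enhancers. In the assay a glucose carrying a chemical handle is attached to 5hmC, biotin is added to the handle, and the tagged fragments are captured and sequenced. A peak therefore marks a stretch where 5hmC-bearing fragments were enriched and gives no level per cytosine. Peaks of the 4 young lists that shared at least 1 bp were merged, which gave 120047 regions. A region was counted as kept when all 4 lists had a peak in it, as gained when both enriched lists and neither control list did, and as lost in the reverse case. The remaining combinations were called mixed. Positions are on build mm9 and count from 1.

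In peak number and in length under peaks, the young lists differed more within the control group than between the groups. Young control replicate 1 held 43709 peaks over 45.0 Mb and replicate 2 held 78980 peaks over 86.5 Mb. Young enriched replicate 1 held 57492 peaks over 55.5 Mb and replicate 2 held 59462 peaks over 61.4 Mb. Both enriched lists thus lay between the control lists in number and in length. The means were 61344.5 ± 24940 peaks in control and 58477 ± 1393 in enriched samples (SD, n = 2 each). Median peak width was 920 and 952 bp in the control lists and 865 and 915 bp in the enriched lists, so both enriched lists were slightly narrower. Peaks of at least 5 kb numbered 14 and 61 in control and 8 and 15 in enriched lists. The number of reads behind each list is unknown, and an exact permutation test of 2 lists against 2 cannot go below p = 0.33, so none was made of these values.

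Few regions followed housing. Of the 120047 regions, 3407 (2.84%) were gained and 4422 (3.68%) were lost, while 15645 (13%) were kept. A single list accounted for 58650 regions (48.9%), 23939 of them in young control replicate 2 alone. A further 18294 regions (15.2%) lacked a peak in exactly 1 list. In 8533 of these the missing list was young control replicate 1, the shortest, and in 1388 it was young control replicate 2, the longest. The enriched lists were the missing one in 4458 (replicate 1) and 3915 (replicate 2) regions.

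**Figure D1:**
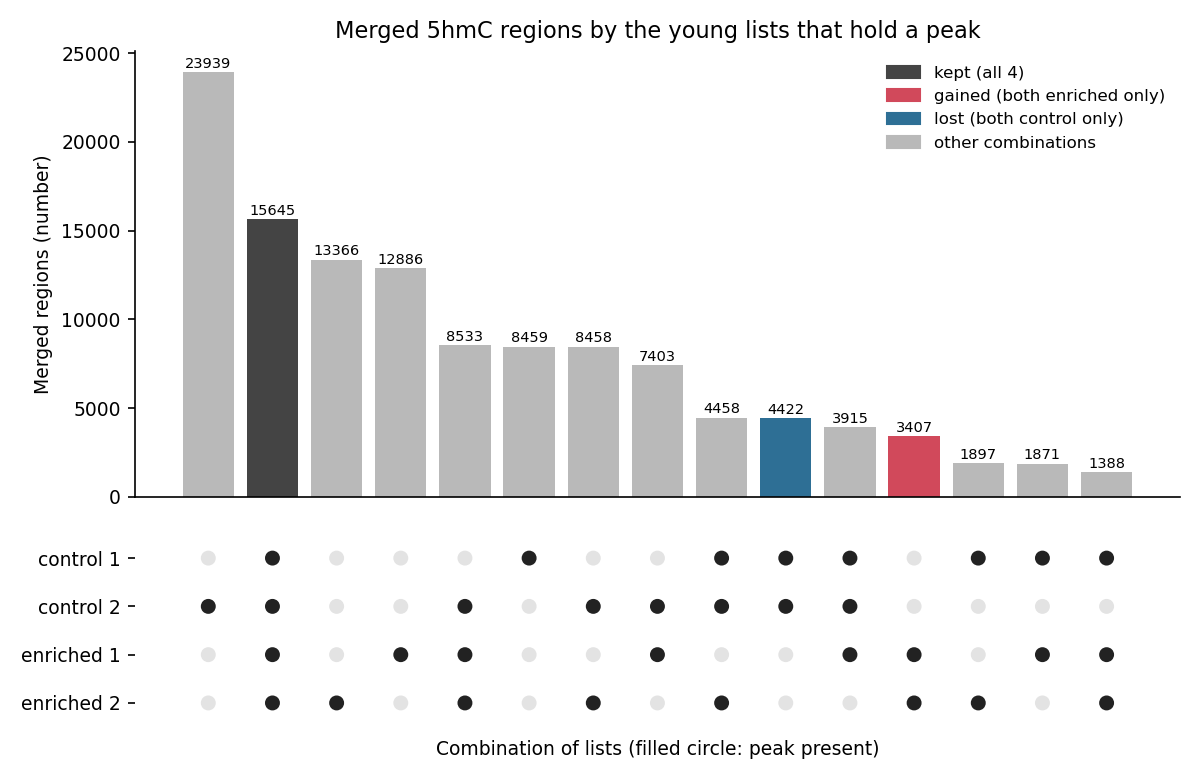
Number of merged regions (vertical axis) for each combination of the 4 young lists; a filled circle below a bar marks a list with a peak in those regions. Gained regions (3407, red) and lost regions (4422, blue) rank among the smaller combinations, below the 8458 regions shared by young control replicate 2 and young enriched replicate 2 alone.

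The other 2 ways of setting 2 of the 4 lists against 2 gave the background for these counts. With young enriched replicate 1 and young control replicate 1 on one side, 1871 regions were particular to that side and 8458 to the other, 10329 in all. With young enriched replicate 1 and young control replicate 2 on one side, the counts were 1897 for the other side and 7403 for that one, 9300 in all. Housing gave 7829 regions in all (6.52%), the smallest of the 3 totals. The geometric mean of the 2 counts, which is less sensitive to unequal lists, was 3881 for housing, between 3747 and 3978 for the other ways. The smaller of the 2 counts was 3407 for housing, above 1871 and 1897 for the other ways. Housing was also the only way that set the shortest and the longest list on the same side. The order of the 3 ways thus depended on the measure, with housing lowest by total, in the middle by geometric mean and highest by the smaller count. In equally long lists, made of the 43709 highest-scoring peaks of each, housing gave 3064 gained and 3194 lost regions (6258), against 6816 and 6313 for the other ways. There the geometric means were 3128 for housing and 3369 and 3127 for the others, and the smaller counts were 3064, 2892 and 2723. Among peaks with a score of at least 100 the geometric means were 894 for housing and 946 and 915 for the others. The smaller counts there were 626, 315 and 355. Gained regions made up 43.5% of gained and lost regions together, 49.0% in equally long lists and 32.9% among peaks with a score of at least 100. Under the other ways, the side with young enriched replicate 1 made up 18.1% and 79.6% in the full lists. It made up 42.4% and 56.9% in equally long lists and 9.97% and 86.9% at that score, so 32.9% lay between these. The pair of lists sharing most regions was of mixed housing, with 37094 regions common to young control replicate 2 and young enriched replicate 2. The 2 enriched lists shared 28973 regions, 52.6% of those in replicate 1 and 50.7% of those in replicate 2. The 2 control lists shared 28440, which were 67.6% of the shorter list and 37.0% of the longer.

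Gained and lost regions were narrow and weak, and kept regions were wide and strong. Gained regions had a median width of 939 bp (quartiles 810 and 1162 bp, widest 2885 bp). Lost regions had a median of 1029 bp (882 and 1319 bp, widest 3814 bp), and kept regions of 1635 bp (1218 and 2267 bp, widest 12686 bp). Merging more peaks makes a region wider, so the width of a region with 4 peaks is not measured like that of a region with 2. Strength was read as the rank of a peak's score within its own list, given as a percentile with 100 for the strongest. The median of the mean percentile was 39.6 for gained, 41.4 for lost and 72.2 for kept regions. It was 40.0 and 43.2, and 42.4 and 39.5, for the 4 sets from the other 2 ways of pairing the lists. Gained and lost regions were thus about as low in rank as regions shared by any 2 lists. Of gained regions, 489 (14.4%) lay above the 50th percentile in both enriched lists, 69 (2.03%) above the 75th and 4 above the 90th. The lost counts were 814 (18.4%), 124 (2.80%) and 15.

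Scores near the lowest deposited value of 50.0 were frequent among these regions. In gained regions 37.2% of the best peaks in young enriched replicate 1 and 35.4% in replicate 2 scored under 60, against 29.2% and 28.0% of all peaks of those lists. In lost regions the shares were 37.6% in young control replicate 1 and 25.8% in replicate 2, against 29.9% and 23.2% of all peaks. Best peaks in kept regions scored under 60 in 4.42% to 14.2% of cases.

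The strongest decile of each list was held in common. Kept regions made up 83.8% and 73.6% of the top decile in young control replicates 1 and 2, and 78.9% and 78.7% in young enriched replicates 1 and 2. In the lowest decile they made up 16.1%, 3.40%, 8.11% and 7.70%, in the same order. Regions gained or lost with housing were 2.01% and 1.11% of the top decile in the control lists and 0.785% and 0.689% in the enriched lists. Kept regions thus dominated the strong end in all 4 lists, whichever the housing.

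**Figure D2:**
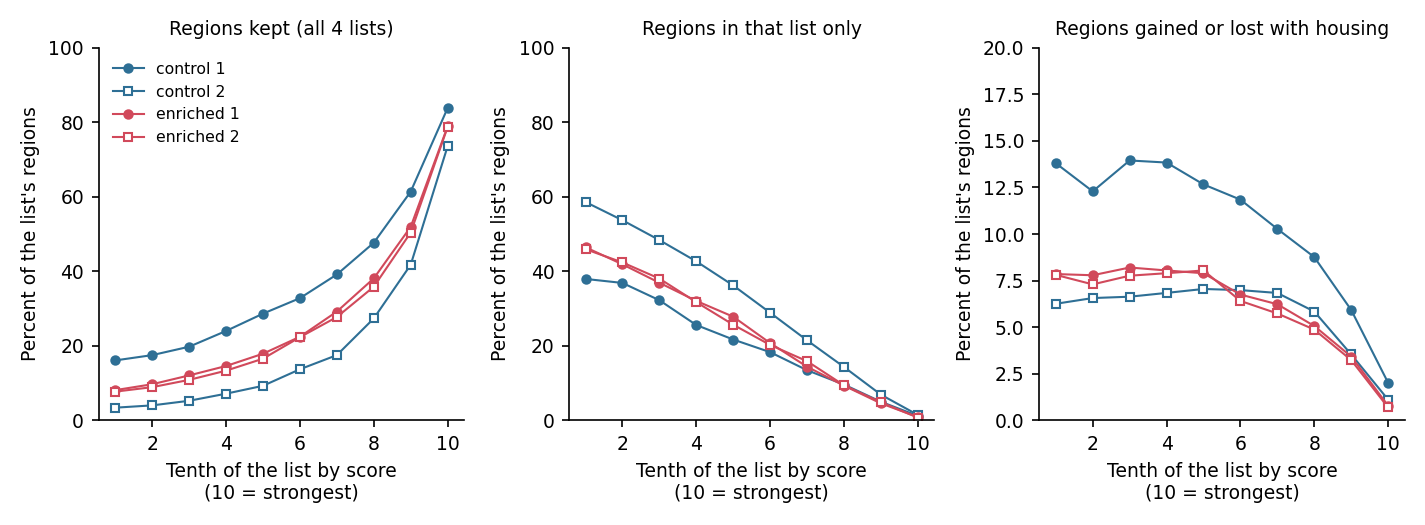
Percent of each young list's regions (vertical axis) that were kept, in that list only, or gained or lost, by decile of the list in order of score (horizontal axis, 10 is the strongest); lines join the deciles of 1 list and the right panel has its own scale. Kept regions climb to between 73.6% and 83.8% of the top decile, where regions gained or lost with housing are between 0.689% and 2.01%.

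The 10 strongest gained regions were 1451 to 2481 bp wide, and their mean percentiles were 89.3 to 96.4. The first was chr6:53567852-53569641, with scores of 194 (rank 1941 in its list) and 197 (rank 2290) in young enriched replicates 1 and 2 and no control peak. The next was chr18:75540589-75542244, with 153 (rank 4131) and 165 (rank 3927). The third was chr17:43216001-43218481, with 184 (rank 2322) and 135 (rank 6922). The other 7 were chr17:12441198-12443002, chr1:154891218-154892743, chr10:44858452-44860173, chr1:136810639-136812321, chr8:11172100-11173821, chr4:106476256-106477706 and chr8:124002920-124004615. When peaks up to 500 bp apart were merged too, 4 of the 10 were no longer gained, because a control peak joined the region.

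The 10 strongest lost regions were 1442 to 2409 bp wide, with mean percentiles of 93.6 to 97.7. The first, chr1:168328548-168330648, had scores of 233 (rank 891) and 277 (rank 1999) in young control replicates 1 and 2 and no enriched peak. The second, chr6:48985641-48988049, had 227 (rank 949) and 206 (rank 4666), and the third, chr1:135152358-135153873, had 196 (rank 1466) and 219 (rank 3954). These ranks were somewhat nearer the top of their lists than those of the leading gained regions. The other 7 were chr3:138559115-138560929, chr6:99339080-99340678, chr10:67559886-67561844, chr16:20678788-20680229, chr4:133959376-133961205, chr2:92826053-92828151 and chr1:188538683-188540715. Again 4 of the 10 ceased to be lost with the wider merging.

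Kept regions included the strongest peaks of every young list. The region chr10:79773475-79781275 (7801 bp) scored 1238 and 1333 in the control lists and 746 and 1478 in the enriched lists, ranks 1, 3, 4 and 1. The region chr5:110530922-110534729 (3808 bp) ranked 17 and 1 in control and 11 and 2 in enriched lists. The third, chr4:141024980-141034012 (9033 bp), ranked 4, 5, 2 and 33. The remaining pair were chr4:154528814-154535871 (7058 bp) and chr4:132616256-132622449 (6194 bp). All 5 were thus among the 33 best peaks of each of the 4 lists.

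Lengths under peaks in the 15645 kept regions were compared next, since kept regions treat both groups alike. The median length in a kept region was 1104 and 1348 bp in young control replicates 1 and 2, and 1098 and 1169 bp in young enriched replicates 1 and 2. No kept region passed limma's test at an adjusted p of 0.05 (0%), and 696 had an unadjusted p under 0.05, fewer than the 782 that make up 5% of the regions. The test compared log2 lengths after setting the median of each list to the same value. The median half-width of the 95% interval, before adjustment over the 15645 regions, was 0.68 on the log2 scale. Differences smaller than that were mostly not detectable. Larger ones also went uncalled after adjustment, for example 1.88 at chr17:30743124-30745466. In bp, 3348 kept regions (21.4%) were longer in both control lists than in both enriched lists and 1416 (9.05%) the reverse. After centring the lists, the counts were 1908 (12.2%) and 3028 (19.4%). The direction of that excess thus turned with the scaling, and no direction is given for kept regions as a group.

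The kept region with the smallest p for more length in enriched housing was chr7:87200343-87202310. It held 657 and 855 bp under peaks in the control lists and 1808 and 1799 bp in the enriched lists, a centred log2 difference of 1.37 ± 0.24 (SE). Next came chr2:174293554-174295460, with 690 and 777 bp against 1615 and 1767 bp, and chr17:30743124-30745466, with 828 and 508 bp against 2260 and 2176 bp. In the other direction stood chr18:75569866-75572364, with 1656 and 2382 bp in control and 640 and 651 bp in enriched lists (−1.51 ± 0.25). It was followed by chr6:137585790-137587979 (1929 and 2113 against 635 and 766 bp) and chr1:74003474-74006972 (3344 and 2715 against 719 and 870 bp). In each of these 6 regions, chosen by their p, the groups did not overlap, and in each limma's adjusted p was 1.00. After centring, 12.2% of all kept regions were longer in both control lists without overlap, and 19.4% in both enriched lists.

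Gained regions lay farther apart than lost regions. The median distance to the nearest region of the same kind was 110 kb for gained, 78.9 kb for lost and 7.74 kb for kept regions. Chains of at least 3 regions with gaps of up to 100 kb held 21.7% of gained regions (216 chains), 31.3% of lost regions (378 chains) and 84.0% of kept regions. Sets from the other ways of pairing the lists held 8.12% (of 1871 regions), 10.6% (of 1897), 51.6% (of 7403) and 58.3% (of 8458) in chains. The share in chains therefore followed the size of the set, and the values for gained and lost regions fell in the order of their numbers. In equally long lists, where the sets were of like size, chains held 22.0% of gained and 23.7% of lost regions.

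Gained and lost regions were found in the same stretches of the genome. A lost region was within 100 kb of 54.5% of gained regions, and a gained region within 100 kb of 45.5% of lost regions. The shares for the nearest region of the same kind were 47.0% for gained and 56.2% for lost regions. With the other ways of pairing the lists, 73.6% and 74.3% of the smaller sets lay within 100 kb of the opposite set, and 30.7% and 31.6% of the larger sets did. These shares were broadly higher where the opposite set held more regions. The median distance to a kept region was 22.6 kb for gained and 20.9 kb for lost regions, against 31.9 kb for regions in 1 list only and 14.2 kb for those in 3 lists. Of the 2153 windows of 1 Mb with a region, 1311 held a gained and 1435 a lost region, and 1139 held both. Windows with at least 3 gained and no lost regions numbered 23, and those with at least 3 lost and no gained regions numbered 68. Lost regions were also the larger set, 4422 against 3407. No such window counts are given for equally long lists or the other ways of pairing.

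The longest gained chains had 7 regions each. One spanned chr2:59023900-59094702, where 7 gained regions in 70.8 kb were interspersed with 3 lost, 3 kept and 11 mixed regions. Its scores were low, 52.2 to 116 in young enriched replicate 1 and 50.0 to 87.2 in replicate 2. The other spanned chr3:148571220-148833630 (262 kb) with no lost region and 3 kept ones, and no aged list had a peak in any of its 7 gained regions. A chain of 6 at chr2:166208885-166346573 (138 kb) held no lost and 10 kept regions, and 5 of its 6 members had a peak in an aged list. So did 3 of the 7 gained regions at chr2:59023900-59094702, and 53.7% of all gained regions. By window, gained regions were most numerous at 59 to 60 Mb of chromosome 2 (12 gained, 11 lost), 166 to 167 Mb of chromosome 2 (11 gained, 3 lost) and 134 to 135 Mb of chromosome 1 (10 gained, 10 lost).

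The longest lost chain had 11 regions at chr11:87999386-88334480 (335 kb), with no gained and 11 kept regions among them. A chain of 10 lay at chr6:124697530-125121606 (424 kb), with 1 gained and 8 kept regions. In these chains 9 of 11 and 9 of 10 lost regions had a peak in an aged list, against 56.9% of all lost regions. Lost regions were most numerous at 88 to 89 Mb of chromosome 11 (12 lost, 4 gained), 33 to 34 Mb of chromosome 2 (12 lost, 6 gained) and 26 to 27 Mb of chromosome 8 (12 lost, 2 gained). The window at 94 to 95 Mb of chromosome 10 held 11 lost and 1 gained region.

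One segment of chromosome 18 held a strong gained region, a lost chain and the kept region with the smallest p for less length in enriched housing. It was chosen after these values were seen. The chain of 8 lost regions ran over chr18:75582840-75834253, with 1 gained and 22 kept regions among them. Across chr18:75535849-75879973 (344 kb) there were 3 gained, 8 lost, 28 kept and 55 mixed regions. In bp, 10 of the 28 kept regions were longer in both control lists and 1 was longer in both enriched lists, against 21.4% and 9.05% of all kept regions. After centring the lists the counts were 5 and 1 of 28, against 12.2% and 19.4% of all kept regions. The window from 75 to 76 Mb as a whole held 81 and 147 peaks in control and 119 and 115 in enriched lists, a log2 difference relative to list length of 0.11 ± 0.098 (SE; limma adjusted p = 0.982). Gained and lost regions thus sat side by side in a window whose share of peaks did not pass the test.

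**Figure D3:**
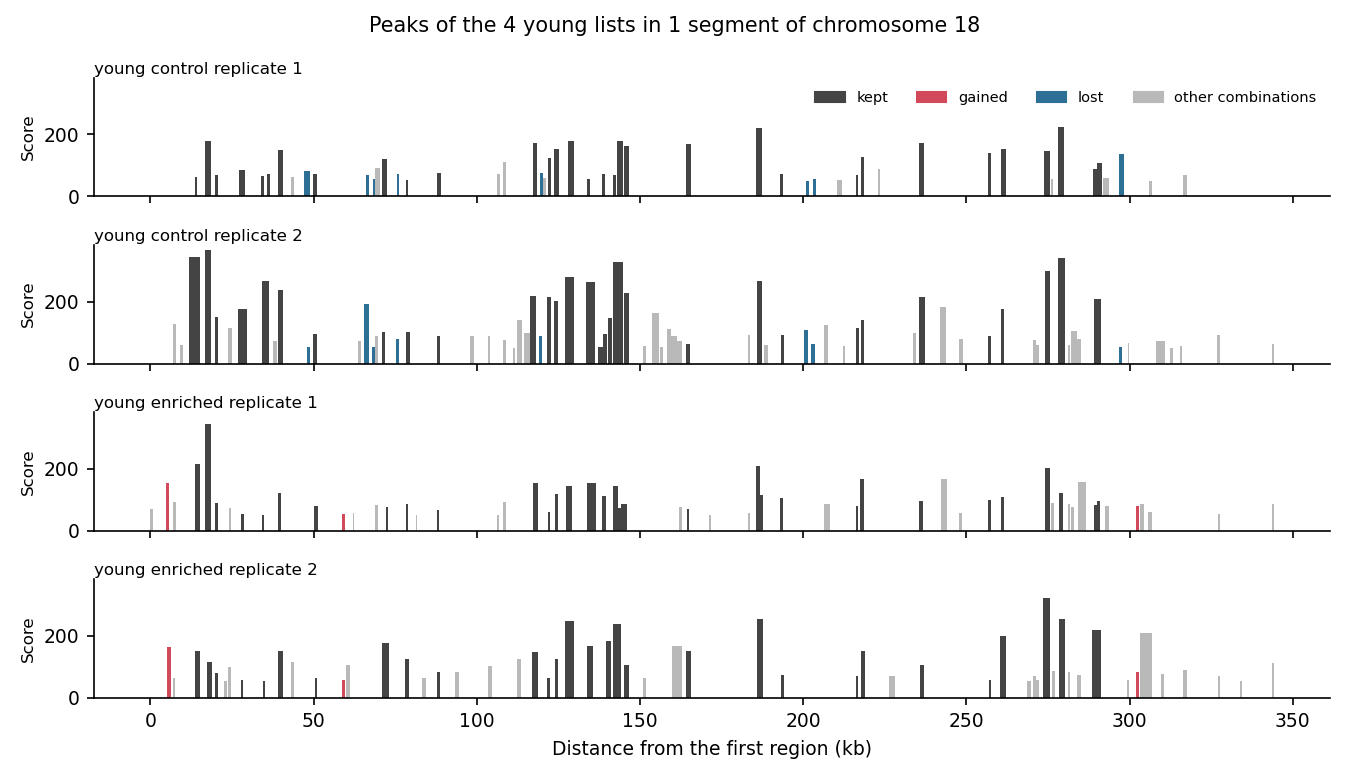
Score of each peak (vertical axis, the authors' value) in the 4 young lists along 344 kb of chromosome 18 (horizontal axis, distance from the first region in kb), coloured by the kind of merged region. The gained region at the left end scores 153 and 165 in the enriched lists, and the 8 lost regions lie among 28 kept ones.

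Over the genome, no window's share of peaks passed the test. Of 1607 windows of 1 Mb with a mean of at least 5 peaks, none was called by limma on log2 peaks per 1000000 peaks of the list (0%). At an unadjusted p under 0.05 there were 59, where 5% of the windows is 80.4. Of these windows, 790 were higher and 817 lower in enriched housing, and 95.9% differed by less than 1.5-fold between the groups. The median half-width of the 95% interval was 0.43 on the log2 scale. The length under peaks gave 0 of 1564 windows (0%), with 47 at an unadjusted p under 0.05. Without young control replicate 2, limma called 28 windows by number (18 higher, 10 lower) and 3 by length, and without young enriched replicate 1 it called 1 by each measure. In such fits 1 list stands alone for its group and is assumed to vary like the other group.

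The window with the smallest p for more peaks in enriched housing was 68 to 69 Mb of chromosome 17. It held 9 and 20 peaks in the control lists and 27 and 21 in the enriched lists, and the log2 difference relative to list length was 0.78 ± 0.26 (SE). At 77 to 78 Mb of chromosome 18 the lists held 20 and 58 against 51 and 49 peaks (0.54 ± 0.19). At 152 to 153 Mb of chromosome 4 they held 22 and 80 against 56 and 70 peaks (0.57 ± 0.20), and relative to list length young control replicate 2 lay above young enriched replicate 1. Without young control replicate 2 that last window became 1.05 (limma adjusted p = 1.27e-05).

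Toward fewer peaks in enriched housing, the window at 4 to 5 Mb of chromosome 5 came first. It held 20 and 26 peaks in the control lists and 12 and 10 in the enriched lists (−0.99 ± 0.27), with 6 lost and no gained regions. At 54 to 55 Mb of chromosome 1 there were 18 and 36 against 14 and 14 peaks (−0.81 ± 0.25), and at 194 to 195 Mb of chromosome 1 there were 24 and 39 against 15 and 22 (−0.71 ± 0.23). Relative to list length, both enriched lists lay below both control lists in these 3 windows, as they did in 16.7% of all tested windows, while they lay above both in 15.8%. All 6 windows had a limma adjusted p of 0.982. Without young control replicate 2 the chromosome 18 window was called (0.86, limma adjusted p = 0.00731), as was the one on chromosome 5 (−1.23, limma adjusted p = 0.0183). Length under peaks put the chromosome 17 window first as well, with 8600 and 21132 bp in control and 24537 and 19776 bp in enriched lists (0.76 ± 0.24, limma adjusted p = 0.963).

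**Figure D4:**
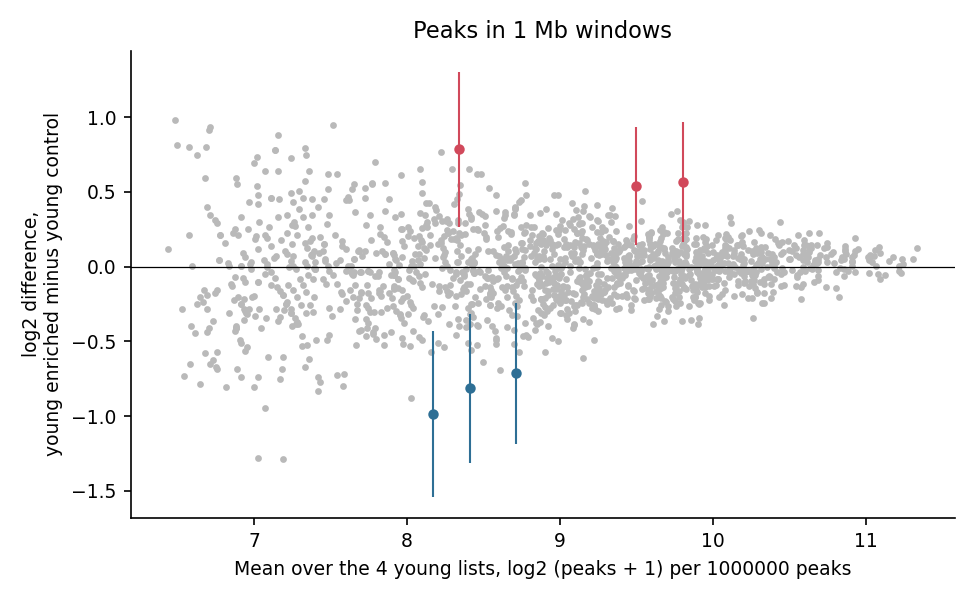
Log2 difference in peaks relative to list length, young enriched minus young control (vertical axis), for 1607 windows of 1 Mb against their mean over the 4 lists (horizontal axis, log2 scale). Coloured points are the 3 windows with the smallest p in each direction with 95% intervals from limma; none of the 1607 windows was called.

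Gained and lost regions were spread over the chromosomes in like shares. Among autosomes, gained regions made up 2.57% (chromosome 7) to 3.24% (chromosome 17) of the regions, and lost regions 3.12% (chromosome 5) to 4.17% (chromosome 2). The ratio of gained to lost ran from 0.655 on chromosome 6 to 1.01 on chromosome 14. The X chromosome had only 54 regions, of which 1 was gained, 4 were lost and 1 was kept. None of 20 chromosomes had a share of peaks that passed limma's test (0%), and 1 had an unadjusted p under 0.05. That was chromosome 1, with 6.11% and 6.18% of peaks in the control lists and 5.91% and 5.92% in the enriched lists (log2 difference −0.055 ± 0.017 SE, limma adjusted p = 0.453). Chromosome 14 held 3.73% and 3.82% against 3.91% and 3.92%, and chromosome 5 held 7.32% and 7.63% against 7.76% and 7.81%. Chromosome 15 held 4.81% and 4.83% against 4.96% and 4.91%, and chromosome 3 held 4.70% and 4.61% against 4.57% and 4.54%. The X chromosome had 22 and 25 peaks in the control lists and 9 and 18 in the enriched lists (log2 share −0.87 ± 0.42 SE, limma adjusted p = 0.453). Without young enriched replicate 2 this became −1.35, on 22, 25 and 9 peaks. That fit has 1 enriched list, which shows no spread of its own.

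The 4 aged lists gave a readout of the young gained and lost regions that had not entered their choice. A peak of aged control replicate 1 lay in 31.1% of gained and 35.2% of lost regions, and one of replicate 2 in 19.6% and 22.5%. In aged enriched replicate 1 the shares were 12.0% and 13.4%, and in replicate 2 they were 13.6% and 13.4%. Kept regions had a peak in 76.0%, 59.8%, 38.2% and 37.5% of cases in the same order, and regions found in 1 young list in 18.7%, 10.7%, 7.10% and 7.54%. Gained and lost regions were thus present in the aged lists more often than regions of a single young list and less often than kept ones. The 4 sets from the other 2 ways of pairing the young lists had similar shares. These were 31.5% to 34.7% and 18.3% to 22.5% in aged control replicates 1 and 2. In aged enriched replicates 1 and 2 they were 11.5% to 13.7% and 11.3% to 14.7%. The aged lists held 59260, 38000, 25548 and 30832 peaks, which sets how many regions each can cover. Aged enriched replicate 2 also stood apart from the other lists, with a median peak width of 430 bp and 1.34% of its peaks scoring under 60.

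The ratio of the gained to the lost share was then taken within each aged list. It was 0.883 and 0.874 in the aged control lists and 0.893 and 1.01 in the aged enriched lists. The log2 ratio was higher by 0.11 in aged enriched lists, with an SD between replicates of 0.090, and by 0.023 without aged enriched replicate 2. Under the other 2 ways of pairing the young lists the same difference was −0.013 and 0.12, so that for housing did not exceed both. The sides of those ways have no natural order, so the sign of their differences carries no meaning. In the narrowest of 3 classes of width (up to 893 bp) the ratio was 0.994 and 0.976 in aged control and 1.01 and 1.04 in aged enriched lists. In the middle class (up to 1136 bp) it was 0.940 and 1.03 in aged control and 0.820 and 1.00 in aged enriched lists. In the widest class it was 0.891 and 0.808 against 1.02 and 1.16. The aged enriched lists had the higher ratios in the narrow and wide classes and not in the middle one.

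Among the 489 gained and 814 lost regions above the 50th percentile of both lists, the log2 difference between aged enriched and aged control lists was 0.14 and the aged groups overlapped. Under the other 2 ways it was 0.041, with overlap, and 0.18, without. Among the 69 gained and 124 lost regions above the 75th percentile the difference was larger. Aged control replicate 1 had a peak in 42.0% of these gained and 61.3% of these lost regions, and replicate 2 in 39.1% and 45.2%. Aged enriched replicate 1 had a peak in 23.2% and 19.4%, and replicate 2 in 21.7% and 20.2%. The ratio of gained to lost was thus 0.686 and 0.866 in the aged control lists and 1.20 and 1.08 in the aged enriched lists, a log2 difference of 0.56. Under the other 2 ways of pairing the young lists the difference was −0.71 and 0.40, and in the latter the aged groups did not overlap either. As their sign is arbitrary, the first was larger in size than the 0.56 for housing. Its SD between replicates was 1.21, against 0.19 for housing. Only 30 regions made up 1 of its sides, and aged enriched replicate 2 had a peak in 2 of them. No test was made of these values, since an exact permutation test is bounded as above. These limits on rank were chosen after the data were seen.

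**Figure D5:**
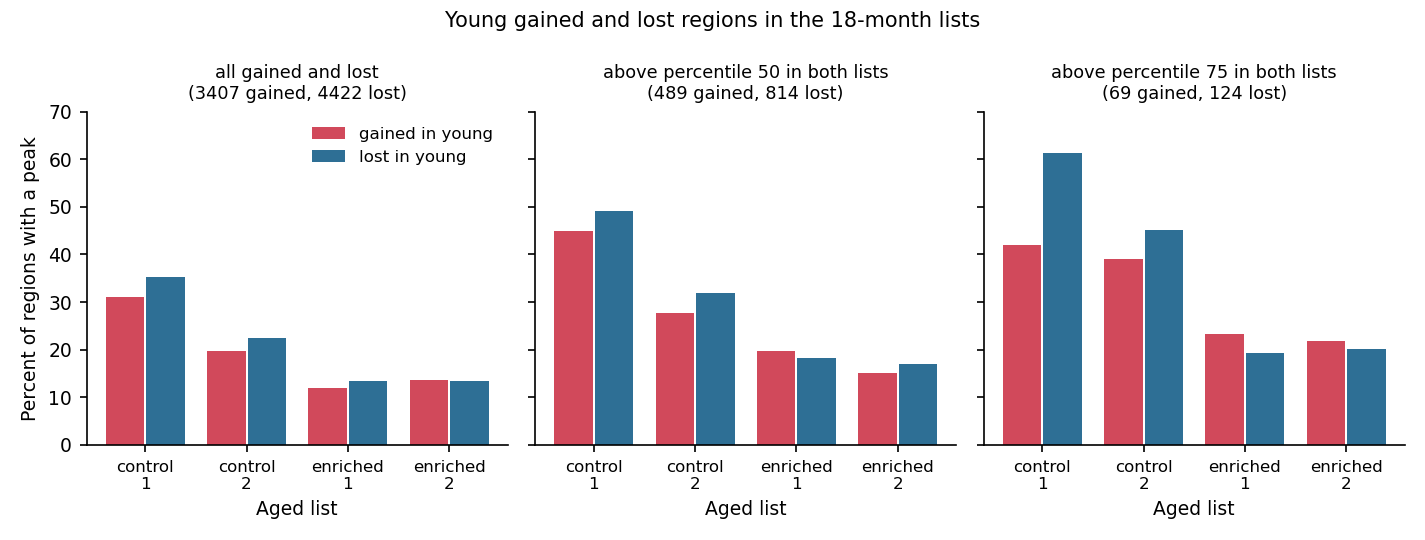
Percent of young gained (red) and lost (blue) regions with a peak in each aged list (vertical axis), for all such regions and for those above the 50th and the 75th percentile of both young lists that hold them. In the right panel (69 gained, 124 lost) lost regions lie above gained ones in both aged control lists and below them in both aged enriched lists.

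Of the 10 strongest gained regions named above, 7 had a peak in some aged list, 6 in an aged enriched list and 3 in an aged control list. Over all gained regions the shares were 53.7%, 23.6% and 42.0%. All 10 of the strongest lost regions had a peak in an aged control list and 3 had one in an aged enriched list, against 46.2% and 24.7% of all lost regions. Of the 10 strongest regions in each of the 4 sets from the other ways of pairing the lists, 7 to 10 had a peak in an aged control list and 5 to 8 in an aged enriched list. No test was made of these counts of 10. Few regions repeated the whole pattern. Among gained regions, 22 had a peak in both aged enriched and neither aged control list, and 198 had the reverse. Among lost regions, 336 had a peak in both aged control and neither aged enriched list, and 26 had the reverse. The aged control lists were the longer ones, and among kept regions 2438 were in both aged control lists only and 123 in both aged enriched lists only. As shares, both aged control lists only held 5.81% of gained, 7.60% of lost and 15.6% of kept regions, and both aged enriched lists only held 0.646%, 0.588% and 0.786%. The 3 strongest gained regions that were also present in both aged enriched lists only were chr3:145451296-145453192, chr11:120699455-120701297 and chr16:90518730-90519890. In the first, young enriched replicates 1 and 2 scored 87.9 and 122. In the second they scored 76.7 and 127, and in the third 95.5 and 91.1.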

How the data were processed

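The deposited files were 8 lists of peaks, 1 per sample, each peak with its position and a score. CASAVA 1.4, Bowtie 0.12.9, MACS 1.4.2 and build mm9 are named in the submitters' processing notes. The score in column 5, as the authors deposited it, was used to rank or filter peaks within 1 list. Caller settings, background library and read numbers were not given in the sources used here, so depth and counting error are unknown and a longer list may reflect more reads. Samples were grouped by age and housing from their titles.

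Peaks sharing at least 1 bp were merged. Windows of 1 Mb (peaks by midpoint with a pseudocount of 1 peak, mean of at least 5 peaks; length under peaks with a pseudocount of 1000 bp, mean of at least 5000 bp), log2 lengths in kept regions and chromosome shares were fitted with limma 3.58.1 in R 4.3.3 on the 4 young samples, with Benjamini-Hochberg adjustment at 0.05, after the scripts had been tested on simulated data. A fold change on the pseudocount scale understates that of sparse windows. Named were the 10 gained, 10 lost and 5 kept regions of highest mean rank, the 3 longest chains and the 3 fullest windows of each kind, and, as no test called any, the 3 smallest p-values in each direction. Regions and rules were chosen with earlier results of these data known. Alternatives were a score of at least 100, equally long lists, other merging, scaling, pseudocounts, filters and windows, all 8 samples in the fit, a replicate block, and each sample left out. An mm9 genome and annotation were not used here, so no gene or sequence is given.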

Additional observations from a re-analysis of the deposited data

Results flagged for a closer look

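For 3 features the difference with housing in young samples was unlike that in aged samples by a limma interaction test over all 8 samples. The window at 6 to 7 Mb of chromosome 16 held 11 and 13 peaks in young control, 9 and 5 in young enriched, 3 and 1 in aged control and 7 and 14 in aged enriched lists. Relative to list length, the log2 difference with housing was −0.74 in young and 2.71 in aged samples, −3.45 apart (limma adjusted p = 0.0171 over 1607 windows). By length under peaks the same window gave −0.46 and 2.77, −3.23 apart (limma adjusted p = 0.0422 over 1564 windows).

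The window at 30 to 31 Mb of chromosome 15 held 36.2 and 62.6 kb under peaks in young control, 43.8 and 40.6 kb in young enriched, 17.7 and 8.71 kb in aged control and 13.3 and 11.4 kb in aged enriched lists. Relative to the total length under peaks of each list, its log2 difference was −0.075 in young and 1.42 in aged samples, −1.50 apart (limma adjusted p = 0.0422). Those totals were 58.5 and 31.4 Mb in aged control and 18.3 and 13.7 Mb in aged enriched lists. The aged difference is thus one of share, and in kb the aged groups overlapped. The share of peaks on chromosome 3 was 4.70% and 4.61% in young control, 4.57% and 4.54% in young enriched, 4.05% and 3.91% in aged control and 4.54% and 4.77% in aged enriched lists. The log2 differences were −0.032 and 0.23, −0.26 apart (limma adjusted p = 0.0261 over 20 chromosomes). In none of these features did the 4 young samples alone pass limma's test, with adjusted p-values of 0.982, 0.963, 0.973 and 0.477 in the order given.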

How the results depend on the processing

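With a score of at least 100 there were 626 gained, 1277 lost and 3495 kept regions. Leaving out 1 young sample moved the counts to 4833 to 16926 gained, 8375 to 28592 lost and 17078 to 24245 kept regions, because fewer lists then define each kind. The log2 differences between the lists then ran from −0.43 to 0.42 in peak number, −0.57 to 0.37 in length and −0.11 to −0.033 in median width. Windows called ran from 0 to 28 by number and from 0 to 3 by length, and chromosomes called from 0 to 1 (X). The difference in the aged readout, 0.11 at first, became 0.50 when only peaks scoring 100 or more were used. It was 0.32 where at least 50% of a region had to be covered and 0.56 above the 75th percentile. The score limit kept 25.0% and 17.4% of peaks in the aged control lists. It kept 9.92% and 72.4% in aged enriched replicates 1 and 2. No values for the other ways of pairing are given under the score limit or the coverage rule. With the setting of equally long lists, the log2 ratios were −0.24 and −0.18 in aged control and −0.22 and 0.14 in aged enriched lists, with overlap. When 1 aged sample was left out, the 0.11 became 0.023 to 0.20. Aged enriched replicate 2 had the highest log2 ratio of gained to lost under the score limit and the coverage rule, 0.27 and 0.55. Replicate 1 had −0.34 and −0.099 there. The aged control lists had −0.50 and −0.56 under the score limit, below both aged enriched lists. Under the coverage rule they had −0.17 and −0.021, so the aged groups overlapped. The causes were not tested. The chromosome 3 share turned from −0.032 to 0.049 with a score of at least 100. Of the other values of named windows, regions and chromosomes, 440 kept direction and side of the threshold, 5 passed the threshold and 9 named gained or lost regions changed kind. Of those 440 values, 171 were of the named gained and lost regions. With a score of at least 100, equally long lists or 1 sample left out, peaks were only removed. Those regions, all above that score, could not change kind there. With peaks up to 500 bp apart merged, 4 of 10 gained and 4 of 10 lost regions did change. The replicate block called 0 windows by number or length, 0 kept regions and 0 chromosomes, with 67, 57, 733 and 0 at an unadjusted p under 0.05 in limma. Same-numbered samples did not deviate together (r = −0.011, −0.046, 0.019 and −0.96 in that order, the last −0.30 without X), so the numbers were not taken as pairs. With the numbers crossed, chosen after seeing the data, limma called 1 chromosome. The tests of gene bodies were not run, as no mm9 annotation was used. Depth is unknown. Interval half-widths of about 0.43 (windows) and 0.68 (kept regions) on the log2 scale, before adjustment, limit what could be detected.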
